A study of Mus musculus with 4 samples.

Results

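The 10 genes described here belong to the fibroblast growth factor (FGF) pathway. They are the receptors Fgfr1, Fgfr2 and Fgfr3, the ligands Fgf1, Fgf2, Fgf7 and Fgf18, and the Sprouty genes Spry1, Spry2 and Spry4. They were found by gene symbol among the 24532 genes of the expression table, and each of the 10 matched 1 row. RNA was sequenced from the articular cartilage of wild type C57BL/6 mice in 4 groups, which were sham-operated and injured joints of young and of adult mice. The young mice were 3 weeks old, and injured cartilage was collected at day 3 after surgery. For the adult mice the labels hold 12 weeks in one field and 14 weeks in another, and the name of the adult sham sample spans days 3 to 14. The age of the adult mice in the paper differs from both. The labels name destabilization of the medial meniscus (DMM) as the surgery, whereas the paper describes a full-thickness needle injury of the femoral groove (FTCI) in male mice for these libraries, and the paper's description was followed. Each library was made from cartilage pooled from 10 injured or 5 uninjured mice, so that each group is 1 library, no difference has a replicate check, and no test or standard deviation can be given.

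FGF ligands are secreted proteins that bind receptor tyrosine kinases together with heparan sulfate, a sugar chain on proteoglycans of the cell surface and matrix. The activated receptors recruit adaptor proteins and start the RAS and mitogen-activated protein kinase (MAPK, with ERK as its last kinase) cascade, and Sprouty proteins are feedback inhibitors that are switched on by the pathway and damp it. In cartilage, FGFR3 is known as a brake on chondrocyte proliferation in the growth plate, and FGF18 is known as a ligand that maintains articular cartilage and is one of the ligands of FGFR3. FGF2 is stored in the matrix around chondrocytes, where it is bound to perlecan and released when cartilage is damaged.

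All 10 chondrocyte genes checked had a mean of 1 FPKM or more over the 4 libraries. The same held for all 9 osteoblast, 8 fibroblast and 6 skeletal muscle genes, so that this level is not particular to cartilage. FPKM scales fragments by transcript length and by the mapped fragments of a library, and changes are given as log2 ratios of FPKM + 1, on which 1 is a 2-fold difference. Series of 4 values give the young libraries before the adult ones, and sham before injured within each age. The summed level of 7 macrophage genes stood at 169.8 FPKM in the young sham and 1566 in the young injured library, and at 243.2 in the adult sham and 1364 in the adult injured library. The sums over 8 genes of fibroblasts and synovium were 2195, 4458, 2179 and 7393 in the same order, those over 5 endothelial genes 9.13, 49.6, 9.22 and 31.6, and those over the 10 chondrocyte genes 19155, 15597, 15101 and 12653. The 6 other lists of single tissues or states had sums, again in that order, of 828.5, 1541, 5789 and 6291 for 9 osteoblast genes, 482.1, 482.0, 1113 and 328.8 for 6 skeletal muscle genes, 1064, 2181, 1445 and 1720 for 5 neutrophil genes, 1242, 2266, 491.4 and 131.0 for 3 erythroid genes, 34.9, 51.4, 32.2 and 38.4 for 3 adipocyte genes, and 53.3, 116.2, 7.45 and 26.2 for 4 genes of proliferating cells. The 2 hypertrophic genes Col10a1 and Ihh summed to 340.5, 303.6, 475.3 and 2453. Single genes made up much of some sums. Dcn, of the fibroblast list, was at 1001, 2786, 1393 and 5555 FPKM. Lyz2, of the macrophage list, was at 141.5, 1271, 183.2 and 1090 FPKM. The median log2 ratio of the fibroblast list after injury was 0.54 in the young and 1.04 in the adult, although Dpt was lower at both ages. The part that the cells of these other lists have in the values below was not tested. In whole tissue fewer cells of a type and less RNA per cell cannot be told apart. The general level, taken as the median over 10891 genes of at least 1 FPKM throughout, differed by -0.04 (log2) with injury in the young, by 0.23 with injury in the adult and by -0.30 between adult and young sham cartilage.

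**Figure D1:**
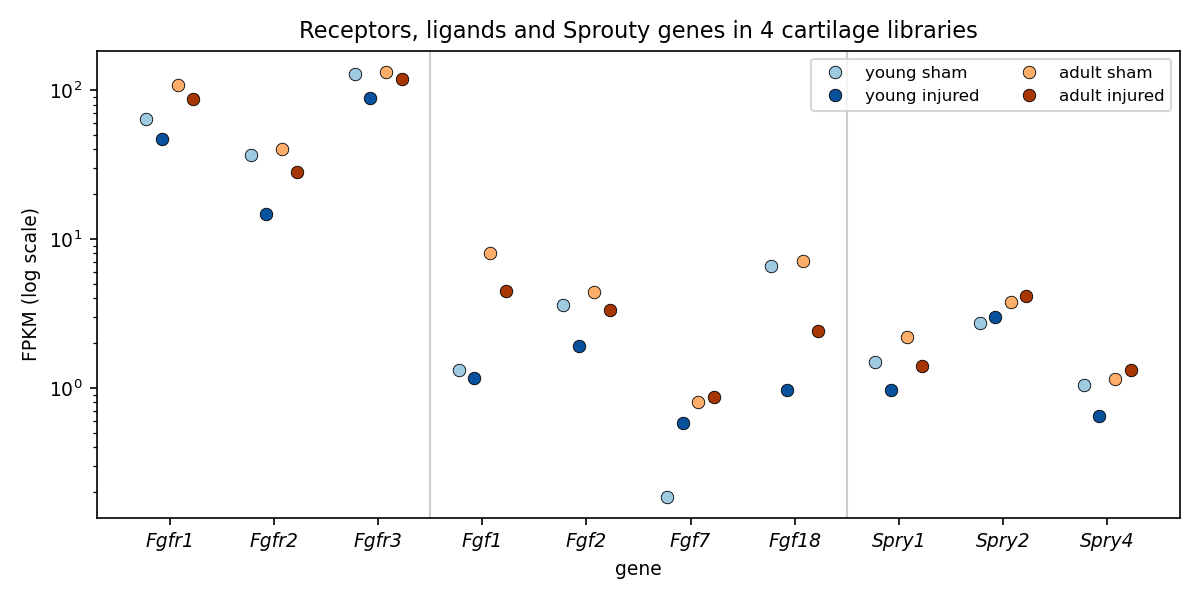
FPKM of the 10 genes (x axis) on a log scale (y axis), with 1 point for each of the 4 libraries and vertical lines between receptors, ligands and Sprouty genes. The receptors lay between 14.8 and 132.7 FPKM, whereas the ligands and Sprouty genes stayed at or below 8.06 FPKM.

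The 3 receptors were the abundant members. Fgfr3 was at 129.3 FPKM in the young sham and 89.2 in the young injured library, and at 132.7 in the adult sham and 118.8 in the adult injured library, which placed it between rank 427 and rank 763 of all genes in the 4 libraries. It was lower in the injured library at both ages, with log2 ratios of -0.53 in the young and -0.16 in the adult, and the sham libraries differed by 0.04. After median-of-ratios scaling, which centres the typical gene at the same level in all libraries, these ratios were -0.55 and -0.49 and the sham libraries differed by 0.47. The difference of the Fgfr3 ratios between the ages thus depended on the scaling, at -0.37 as deposited, -0.59 at an equal FPKM sum, -0.44 under quantile normalization and -0.051 after median-of-ratios scaling. Fgfr1, a receptor used by many mesenchymal cells, was at 64.4, 46.9, 108.7 and 87.9 FPKM in the 4 libraries. Its levels separated by age, since both adult libraries were above both young ones, with log2 ratios of 0.75 between the sham and 0.89 between the injured libraries. Injury gave Fgfr1 a ratio of -0.45 in the young and of -0.30 in the adult. These were -0.465 and -0.64 after median-of-ratios scaling and -0.50 and -0.45 under quantile normalization. Fgfr2, a receptor known for its part in limb and skull development, was at 36.5, 14.8, 40.2 and 28.2 FPKM. On the deposited scale the sham libraries were close for Fgfr2, with a ratio of 0.13 that became 0.56 after median-of-ratios scaling and 0.40 under quantile normalization, and the young injured library was the low one. The log2 ratio after injury was -1.25 in young mice, a 2.47-fold lower FPKM, and -0.50 in adult mice, 1.43-fold lower. In each library the order of levels was Fgfr3, Fgfr1 and Fgfr2. Reads of the splice forms IIIb and IIIc, which bind different ligands, were not separated in these gene values, and exons annotated to Ctbp2 on the same strand overlap those of Fgfr2. Ctbp2 itself was at 9.08, 8.71, 7.81 and 8.01 FPKM.

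The shares of the receptors within their summed FPKM are the same whatever factor a whole library is scaled by. The sum stood at 230.2 FPKM in the young sham and 150.9 in the young injured library, and at 281.6 in the adult sham and 234.9 in the adult injured library. Fgfr3 made up 56.2% and 59.1% of it in young sham and young injured and 47.1% and 50.6% in adult sham and adult injured cartilage. Fgfr1 took 28.0%, 31.1%, 38.6% and 37.4% in that order, so that its share was larger in both adult libraries. The share of Fgfr2 was 15.9% and 14.3% in the sham libraries of young and adult mice and 9.80% and 12.0% in the injured ones.

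Among the ligands, Fgf18 differed most after injury. It was at 6.54 FPKM in the young sham and 0.969 in the young injured library, and at 7.16 in the adult sham and 2.40 in the adult injured library. Both sham libraries were high and both injured libraries low, with log2 ratios of -1.94 in the young and -1.26 in the adult. In FPKM without the added 1, this was 6.75-fold lower in young and 2.98-fold lower in adult injured cartilage. The young injured value was below 1 FPKM and its number of fragments was not estimated, so the fold in the young may rest on few fragments. Of the marker lists, the chondrocyte sum was lower in the injured library at both ages, as Fgf18 was, although the median ratio of its genes was -0.26 in the young and 0.13 in the adult. The muscle and erythroid sums were lower in the adult injured library, where 5 of 6 muscle genes and 1 of 3 erythroid genes were 2-fold lower, and the hypertrophic sum was lower in the young injured library. The muscle sum in the young was 482.1 and 482.0 FPKM, and every other sum was higher in the injured library of its age. Of the 10 chondrocyte genes, 2 were 2-fold lower after injury in the young and 0 in the adult, where 3 were higher, and 6 of the 7 macrophage genes were 2-fold higher at both ages. The part of these cells in the values of Fgf18 was not tested.

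The sequences upstream of 3 genes are given as examples from a ligand, a receptor and a Sprouty gene. Fgf18 had the injury ratios farthest from 0, Fgfr3 was the most abundant member, and Spry2 had the ratio nearest to 0 in young mice. Each is the 250 bases before an annotated start from RefSeq on GRCm38.p6, the assembly of mm10, read 5′ to 3′ on the strand of the gene, with matches to the GC box (GGGCGG on either strand) in capitals.
Fgf18 (chr11:33147401-33147650, minus strand): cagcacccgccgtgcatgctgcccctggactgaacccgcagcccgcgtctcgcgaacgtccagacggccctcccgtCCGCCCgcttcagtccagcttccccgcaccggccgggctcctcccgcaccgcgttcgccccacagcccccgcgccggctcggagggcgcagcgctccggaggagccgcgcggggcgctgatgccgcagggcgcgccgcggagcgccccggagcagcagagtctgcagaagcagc
Fgfr3 (chr5:33721474-33721723, plus strand): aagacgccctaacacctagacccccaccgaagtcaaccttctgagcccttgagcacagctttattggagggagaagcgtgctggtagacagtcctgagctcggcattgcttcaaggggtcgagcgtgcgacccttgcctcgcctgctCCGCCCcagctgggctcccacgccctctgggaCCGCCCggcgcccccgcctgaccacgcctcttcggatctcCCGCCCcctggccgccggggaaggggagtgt
Spry2 (chr14:105896820-105897069, minus strand): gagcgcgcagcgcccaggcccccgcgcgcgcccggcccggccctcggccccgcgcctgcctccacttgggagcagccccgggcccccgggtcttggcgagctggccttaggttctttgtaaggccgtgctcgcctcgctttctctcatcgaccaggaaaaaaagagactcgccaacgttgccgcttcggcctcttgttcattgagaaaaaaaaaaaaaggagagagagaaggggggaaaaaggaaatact
The GC content was 77.2% for Fgf18, 66.8% for Fgfr3 and 62.4% for Spry2, where the median of 32851 promoter windows of this length was 52.4%. The printed Fgfr3 window held 3 GC boxes, the Fgf18 window 1 and the Spry2 window 0, and 32.7% of all windows held at least 1. The window of another annotated Fgfr3 start (chr5:33722056-33722305), not printed here, had a GC content of 72.8% and 2 GC boxes. None of the 3 windows held the ETS letters CCGGAA (12% of all windows), the AP-1 letters TGANTCA (6.75%), the cyclic AMP response element TGACGTCA (1.55%) or TATAAA (12.4%), each searched on both strands. Such matches describe the letters of these windows only. RefSeq windows for 7 of the 10 genes were used.

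Fgf1 had the largest log2 ratio between the ages among the members. This broadly acting ligand, which binds all FGF receptors, was at 1.32 FPKM in the young sham and 1.17 in the young injured library, and at 8.06 in the adult sham and 4.45 in the adult injured library. Both adult libraries were above both young ones. The log2 ratio of adult to young sham cartilage was 1.97, a 6.12-fold higher FPKM, and that of adult to young injured cartilage was 1.33, a 3.81-fold higher FPKM. After injury the ratio of Fgf1 was -0.10 in the young and -0.73 in the adult, so that the age difference was smaller between the injured libraries. Of the 9 osteoblast genes, 5 were 2-fold higher in adult than in young sham cartilage, as were 3 of the 6 muscle genes, 3 of the 7 macrophage genes, 1 of the 5 neutrophil genes and 1 of the 2 hypertrophic genes, with 0 lower in each of these lists, where 2.66% of all genes were higher and 10.6% lower. Their part in the difference of Fgf1 was not tested.

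Fgf2, the matrix-bound ligand, was at 3.58, 1.92, 4.41 and 3.32 FPKM in the 4 libraries. It was lower in the injured library at both ages, by log2 ratios of -0.65 and -0.33. On the opposite strand its exons overlap those of Nudt6, which was at 2.52, 3.29, 1.60 and 3.53 FPKM and thus higher where Fgf2 was lower within each age. The kit marks strand, but whether the counting used it is not given in the sources used here, so that reads of Fgf2 and Nudt6 may have been mixed. Fgf7, a ligand made by mesenchymal cells that acts mainly on epithelium, was the lowest member, at 0.186, 0.582, 0.805 and 0.868 FPKM. After injury its log2 ratio was 0.42 in the young and 0.05 in the adult. Without the added 1, its FPKM was 3.14-fold higher in the young injured and 4.34-fold higher in the adult sham than in the young sham library, which was the low one. Transcript length and the spacing of the lowest values place Fgf7 at about 13, 41, 66 and 59 fragments if 1 step of that spacing is 1 fragment. Under that condition the young sham value of Fgf7 rests on few fragments.

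The order of the ligands differed between the libraries. Fgf18 held 56.3% of the summed FPKM of the 4 ligands in young sham and 35.0% in adult sham cartilage, and 20.9% and 21.7% in the injured libraries of young and adult mice. Fgf1 held 11.3% in young sham and 25.2% in young injured cartilage, and 39.4% and 40.3% in adult sham and adult injured cartilage. Fgf2 was the most abundant of the 4 in young injured cartilage, with 41.3%. The sum of the 4 ligands stood at 11.6 FPKM in the young sham and 4.63 in the young injured library, and at 20.4 in the adult sham and 11.04 in the adult injured library, lower in the injured library at both ages.

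**Figure D2:**
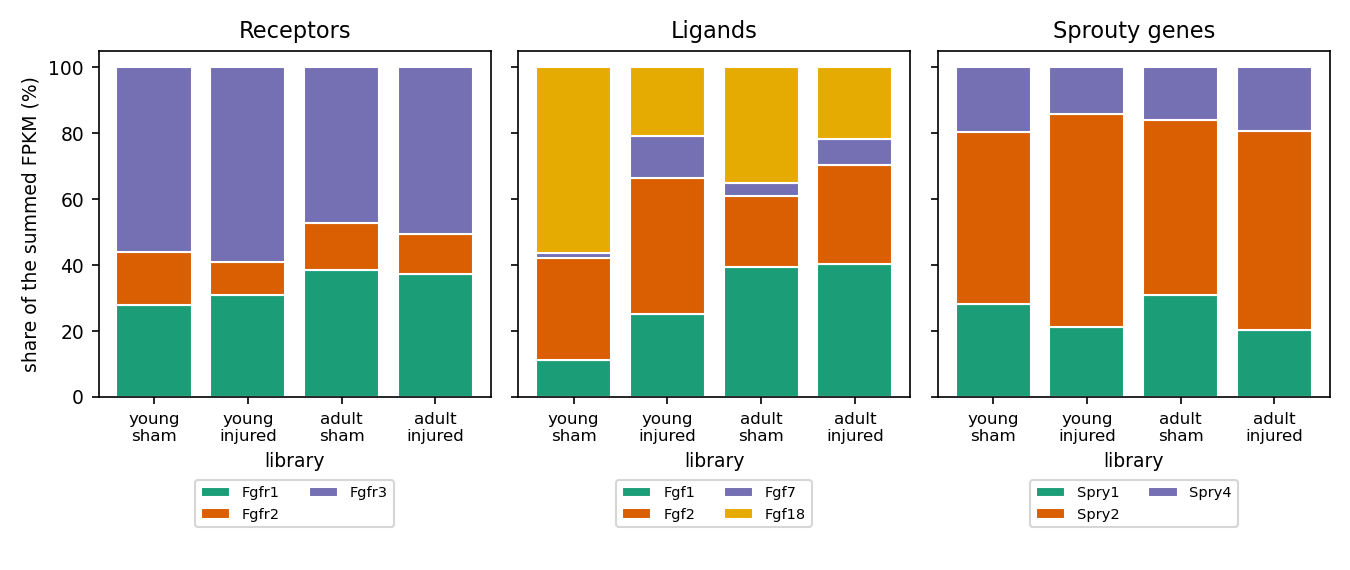
Share of each gene in the summed FPKM of its class (y axis, %), for the 4 libraries (x axis), with stacked bars that add up to the whole class. The Fgf18 part of the ligand bar was 56.3% in young sham against 20.9% in young injured and 35.0% in adult sham against 21.7% in adult injured cartilage, while Fgfr3 was the largest part of every receptor bar.

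The Sprouty genes, as inhibitors that the pathway itself induces, were at a few FPKM or less. Spry1 was at 1.49 FPKM in the young sham and 0.972 in the young injured library, and at 2.19 in the adult sham and 1.40 in the adult injured library, with log2 ratios after injury of -0.33 and -0.41. Spry2 was the most abundant of the 3 in every library, at 2.73, 2.97, 3.78 and 4.15 FPKM, and its ratios were 0.09 in the young and 0.11 in the adult. Spry4 was at 1.04, 0.647, 1.14 and 1.32 FPKM, with ratios of -0.31 in the young and 0.11 in the adult. None of the 3 genes passed 2-fold on the scale of FPKM + 1 in any of the 4 comparisons. The sign of the adult ratio of Spry2 and Spry4 turned with the scaling, since after median-of-ratios scaling the ratios were -0.17 and -0.08. Spry4 would correspond to about 129, 81, 168 and 161 fragments on the spacing described for Fgf7.

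Counted against all genes, the members leaned toward lower values after injury. In young mice 2 of the 10 genes, Fgfr2 and Fgf18, were at least 2-fold lower, where 1.27% of 18181 genes above 0 in at least 1 library were lower and 4.57% higher. None of the 10 was 2-fold higher. In adult mice Fgf18 was the 1 member 2-fold lower, against 1.46% of all genes lower and 6.90% higher, and none of the 10 was higher. After median-of-ratios scaling 2 members were lower, Fgf18 and Fgf1, and the split of all genes became 527 lower and 802 higher in place of 266 and 1255. The log2 ratio was below 0 for 8 of the 10 genes in young mice, compared with 49.9% of all genes, with a median of -0.39 against 0 over all genes. In adult mice it was below 0 for 7 genes, compared with 27.6% of all genes, with a median of -0.31 against 0.14. Under quantile normalization, and under median-of-ratios scaling, all 10 genes were below 0 in adult mice, where 50.3% and 46.7% of all genes then were. Fgfr2, Fgf18, Fgfr3, Fgf2, Fgfr1 and Spry4 had the lower ratio in young mice, with young minus adult differences of -0.75, -0.67, -0.37, -0.33, -0.15 and -0.42, and Spry2 differed by -0.01. Fgf1, Fgf7 and Spry1 had the lower ratio in adult mice, by differences of 0.64, 0.37 and 0.08. After median-of-ratios scaling the differences were smaller for Fgfr2 (-0.43), Fgf18 (-0.34), Fgfr3 (-0.051), Fgf2 (-0.042) and Spry4 (-0.22). They were larger for Fgf1 (0.93), Fgf7 (0.49) and Spry1 (0.32), while those of Fgfr1 and Spry2 were 0.18 and 0.25. The difference of Spry1 was -0.0796 once the libraries had an equal FPKM sum. At that sum the differences of Fgfr2, Fgf18, Fgf2 and Spry4 were larger, at -0.98, -1.02, -0.57 and -0.71. Those of Fgfr3, Fgfr1, Spry2 and Fgf7 were also larger, at -0.59, -0.36, -0.20 and 0.47, and that of Fgf1 was smaller, at 0.50. No test of these differences could be made with 1 library per group.

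**Figure D3:**
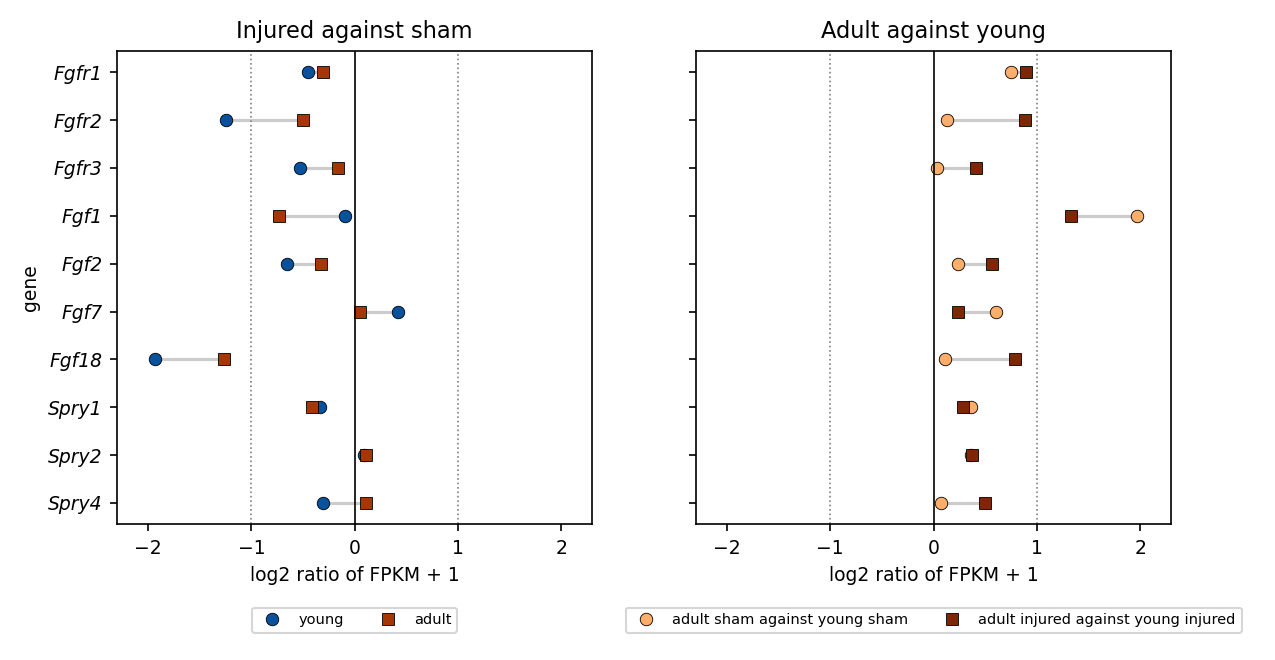
Log2 ratio of FPKM + 1 (x axis) for each gene (y axis), injured against sham cartilage on the left with circles for young and squares for adult mice, and adult against young on the right with circles for sham and squares for injured cartilage. Dotted lines mark 2-fold, which Fgfr2 and Fgf18 passed on the left and Fgf1 on the right, where all 20 points lay above 0.

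Between the ages the members leaned toward higher values in the adult. All 10 were higher in adult than in young sham cartilage, with log2 ratios from 0.04 for Fgfr3 to 1.97 for Fgf1 and a median of 0.30, where 29.7% of all genes were above 0 and their median was -0.15. Fgf1 was the 1 member past 2-fold, against 2.66% of all genes higher and 10.6% lower in the adult. After median-of-ratios scaling 2 members were past 2-fold, Fgf1 and Fgfr1, and the split of all genes, 484 higher and 1934 lower, became 1065 and 932. Between the injured libraries all 10 genes were again higher in the adult, with ratios from 0.24 for Fgf7 to 1.33 for Fgf1 and a median of 0.53, where 40.6% of all genes were above 0 in this direction. Fgf1 was again the 1 member past 2-fold, against 1.80% of all genes lower and 3.09% higher in young than in adult injured cartilage. Once every library was rescaled to an equal FPKM sum, 4 members were past 2-fold (Fgf1, Fgfr1, Fgfr2 and Fgf18), and 625 genes of all were lower and 619 higher in place of 328 and 561. Without the added 1, Fgf18 was 2.48-fold and Spry4 2.04-fold lower in the young injured than in the adult injured library. The direction of all 10 genes in both age comparisons was kept under the 3 rescalings tried. Another pseudocount cannot change the sign of a ratio, so the pseudocounts were no check of direction. The comparisons of injury and of age use the same 4 libraries, so that each library enters 2 of them and the results are not independent. The chondrocyte list also differed with age, since 6 of its 10 genes were at least 2-fold lower in adult sham cartilage and 1 was higher, and Col2a1, the main cartilage collagen, was at 9349 FPKM in young and 3173 in adult sham cartilage. Matn1, a matrix protein of non-articular cartilage, was at 1661 and 2.65 FPKM in these libraries. The 4 genes of proliferating cells were all lower in adult sham cartilage. The part of these differences in the age ratios of the members was not tested.

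The other FGF genes were few. Of the 18 other ligands, 6 were listed at 0 in all 4 libraries, 1 had a mean of at least 1 FPKM, and none passed 2-fold in any comparison. That ligand was Fgf11, an intracellular FGF that is not secreted, at 1.35, 0.829, 1.54 and 1.93 FPKM in the 4 libraries. Fgfrl1, a receptor that lacks the kinase, was at 110.2, 84.9, 115.5 and 63.2 FPKM, close to Fgfr3 in the sham libraries, with log2 ratios after injury of -0.37 and -0.86. Fgfr4 was at 5.14 and 2.84 FPKM in young sham and injured cartilage and at 0.0711 and 0.240 FPKM in the adult, log2 ratios of -2.52 for adult against young sham and 1.63 for young against adult injured cartilage. It thus differed with age in the opposite direction to the 10 members.

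Heparan sulfate, the partner of FGF binding, was followed through its carriers and enzymes. Of 14 proteoglycans and FGF carriers, 13 were above 0, with 0 higher and 1 lower past 2-fold after injury in young mice and 1 higher and 1 lower in adult mice. Over all genes 4.57% were higher and 1.27% lower in young mice and 6.90% and 1.46% in adult mice, where the adult split was 802 to 527 genes after median-of-ratios scaling, and these shares hold beside the injury counts of the other lists as well. Gpc6, a glypican of the cell surface, was the lower one at both ages, at 64.9 and 26.0 FPKM in young and 32.9 and 13.9 FPKM in adult sham and injured cartilage. Sdc1, a syndecan, was the higher one in adult mice, with a ratio of 1.37. Of 12 enzymes, 2 were higher and 2 lower in young mice, and 2 higher and 1 lower in adult mice, to be read beside the same shares of all genes. Sulf2, which removes 6-O-sulfate from heparan sulfate outside the cell, was at 71.3 and 21.8 FPKM in young and 33.7 and 11.8 FPKM in adult sham and injured cartilage, ratios of -1.66 and -1.44. Its relative Sulf1 went the other way, at 10.2 and 22.8 FPKM and at 13.0 and 20.0 FPKM, ratios of 1.09 and 0.59. Hpse, which cuts heparan sulfate chains, was higher in both injured libraries with ratios of 1.03 and 1.36, and Hs6st2, which adds 6-O-sulfate, was lower in young injured cartilage with -1.27. Ndst1, which replaces acetyl groups with sulfate, was higher in adult injured cartilage with a ratio of 1.02.

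Inside the cell, the adaptors and the RAS-MAPK cascade had few genes past 2-fold on the scale of FPKM + 1. All 20 genes of that list had a mean of at least 1 FPKM, and the median ratio was -0.09 in the young and 0.20 in the adult against 0 and 0.14 over all genes. None passed 2-fold in young mice. Grb2, which links receptors to RAS activation, was the 1 gene past 2-fold in adult mice, at 4.50 FPKM in the adult sham against 18.3 in the adult injured library, a ratio of 1.81. Cbl, a ubiquitin ligase of low level, was at 0.455 and 1.304 FPKM in these libraries, 2.87-fold higher without the added 1, for a ratio of 0.66. Between adult and young sham cartilage 2 genes of the list were 2-fold lower and 0 higher, beside 10.6% and 2.66% of all genes, which were Frs2 with a ratio of -1.34 and Cbl with -1.28. Among 9 other feedback inhibitors found in the table, Dusp6, a phosphatase that inactivates ERK and is itself an ERK target, was at 7.19, 14.3, 6.68 and 9.86 FPKM, with ratios of 0.90 in the young and 0.50 in the adult that did not reach 2-fold. Its values were higher in the injured library at both ages, unlike those of Spry1. Dusp1, a phosphatase induced by many stresses, was at 39.8, 18.9, 180.4 and 95.1 FPKM, ratios of -1.03 and -0.92 after injury and 2.15 for adult against young sham cartilage.

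The genes that ERK switches on differed in both directions. Of 13 ERK response genes, 1 was 2-fold higher and 1 lower in young mice, and 3 were higher and 0 lower in adult mice, beside 4.57% and 1.27% of all genes in young and 6.90% and 1.46% in adult mice. Ccnd1, a cyclin of cell cycle entry, was the higher one in young mice, at 3.07 and 8.66 FPKM in sham and injured cartilage, and Egr1, an early response transcription factor, was the lower one, at 15.7 and 7.09 FPKM. In adult mice Ier3, Myc and Fosl1 had ratios of 2.05, 1.45 and 1.10. Etv4, a transcription factor that often reports FGF activity, was at 2.64, 0.826, 2.52 and 1.40 FPKM in the 4 libraries, so both injured libraries were low as for Fgf18, and its relative Etv5 was at 11.1, 11.3, 18.7 and 22.4 FPKM. In young against adult injured cartilage 4 of the 13 genes were 2-fold lower, which were Ier3, Egr1, Ier2 and Phlda1, beside 1.80% of all genes lower and 3.09% higher in this comparison, or 625 and 619 genes at an equal FPKM sum.

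Of 10 growth plate genes known to act around FGFR3, 1 was 2-fold higher and 1 lower in young mice and 2 higher and 1 lower in adult mice. Cdkn1a, which encodes the cell cycle inhibitor p21, was at 19.4, 29.3, 8.03 and 50.3 FPKM, ratios of 0.57 and 2.51. Pthlh, a signal that keeps chondrocytes from maturing, was at 8.69 and 3.49 FPKM in young sham and injured cartilage, a ratio of -1.11. Ihh, the hedgehog ligand of prehypertrophic chondrocytes, was at 2.59, 1.34, 16.6 and 7.55 FPKM, higher in both adult libraries as Fgf1 was. Npr2, the receptor for C-type natriuretic peptide, was at 51.2, 49.0, 161.4 and 80.7 FPKM.

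**Figure D4:**
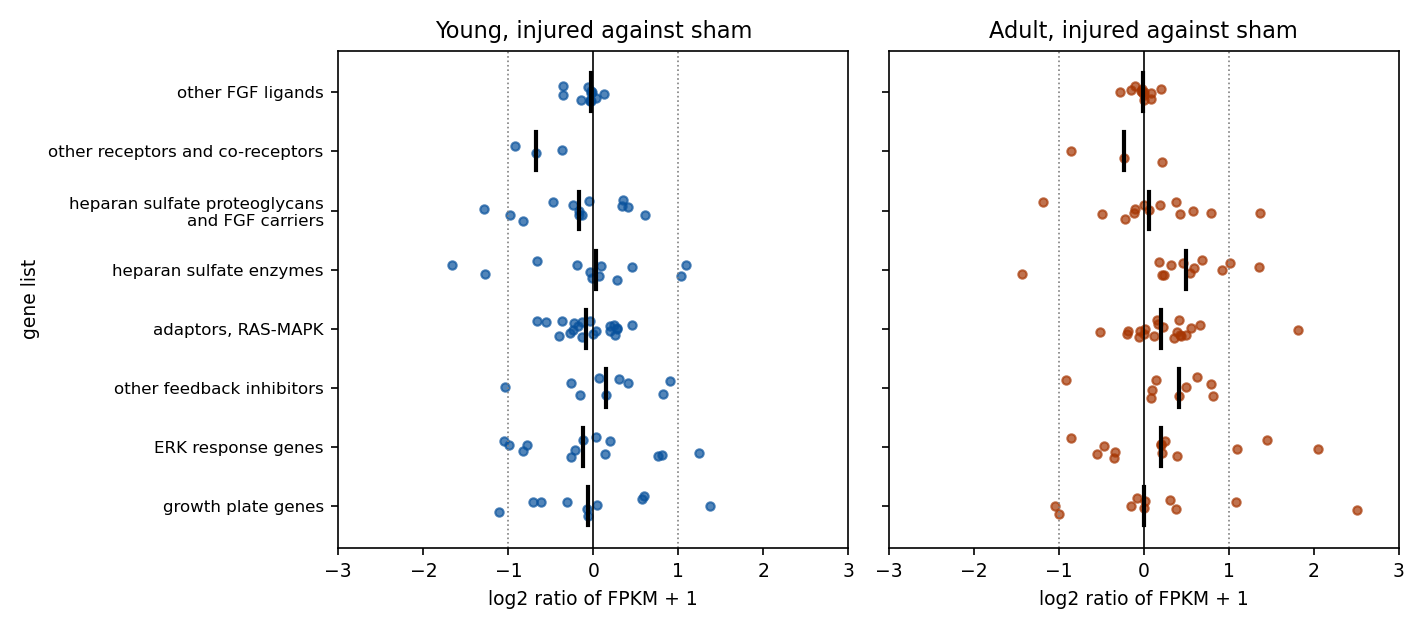
Log2 ratio of FPKM + 1 after injury (x axis) for each gene above 0 in 8 lists of the pathway (y axis), young mice on the left and adult mice on the right, with a point per gene, a black bar at the median of each list and dotted lines at 2-fold. The list medians lay between -0.68 and 0.15 in young and between -0.24 and 0.50 in adult mice.

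The genes with the most similar profile were looked for among 129 genes of these lists, by the distance between log2(FPKM + 1) values of the 4 libraries after each gene was centred on its mean. Fgf7, with a mean under 1 FPKM, was left out. The nearest gene was Phlda1 for Fgfr1 at a distance of 0.27, Etv4 for Fgfr2 at 0.39, and Gab1 for Fgfr3 at 0.33. Fgf1 was nearest to Npr2 at 0.51 and to Comp, a matrix protein of cartilage, at 0.52. Fgf2 and Spry1 had the same nearest gene, Egr3, at 0.28 and 0.17. Spry2 was nearest to Pth1r at 0.15 and Spry4 to Fgf11 at 0.14. Of the other 9 members, Fgf18 had the most distant nearest gene, the muscle myosin Myh1 at 0.61. Myh1 was at 5.04, 1.77, 6.41 and 2.59 FPKM in the 4 libraries, and the summed muscle list was at 482.1, 482.0, 1113 and 328.8 FPKM. The part of muscle in the values of Fgf18 was not tested. With 4 libraries behind each profile, these distances are a description.

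The places of the members are given on GRCm38.p6. Fgfr1 spans 25518759 to 25575718 of chromosome 8, Fgfr2 130162451 to 130266808 of chromosome 7, and Fgfr3 33721724 to 33737068 of chromosome 5. Fgf18 spans 33116970 to 33147400 of chromosome 11, Fgf7 126034658 to 126091185 of chromosome 2, and Spry2 105891947 to 105896819 of chromosome 14. Fgf2 (37348477 to 37410106) and Spry1 (37639947 to 37644599) are both on chromosome 3, and Spry4 (38586247 to 38601347) and Fgf1 (38838672 to 38929470) are both on chromosome 18. Read in the direction of transcription, between 0% and 3.29% of the transcript words of 31 bases of the members also occur in another gene. Overlaps on the opposite strand, such as that of Fgf2 with Nudt6, were not counted.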

How the data were processed

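RNA was sequenced from cartilage pools as paired-end, strand-specific, poly-A selected libraries. The authors deposited FPKM for 24532 genes on mm10, with 1 library per group. The submitters' processing notes name HISAT2 2.1.0, StringTie 1.3.4d, HISAT, STAR and SAMtools, with no role or order. How transcripts were counted and filtered is not given in the sources used here. FPKM carry no counts, so no counting interval is given. The lowest products of FPKM and length of 17546 genes with a single annotated transcript fell on steps of 38.15, 38.1, 32.45 and 39 in the sham and injured young and the sham and injured adult libraries, which is between 25600000 and 30800000 fragments a library if 1 step is 1 fragment.

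Log2 ratios of FPKM + 1 were calculated for 4 comparisons, without further scaling, and 2-fold or more was called. The added 1 understates the change of low genes. The 10 members, 8 pathway lists and 11 marker lists were chosen with earlier results of these data known. Besides members and marker genes, the text names list genes that had on average 1 FPKM or more and passed 2-fold, at most 4 per list and comparison, and the nearest profiles. Fgf11, Fgfrl1, Fosl1, Dusp6, Etv4, Etv5, Nudt6 and Ctbp2 were added after their values were seen or for their overlap. The values of 1 list gene are not reported here. Spry3 had no row, and 1 marker, Cnmd, was matched by an older symbol. The scripts were tested on simulated data. Sequences and coordinates came from RefSeq (GRCm38.p6) and overlaps from GENCODE M21. Python 3.11.15, numpy 2.4.6, pandas 2.3.3 and matplotlib 3.10.9 were used.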

Additional observations from a re-analysis of the deposited data

Results flagged for a closer look

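Spry4 had injury log2 ratios of opposite sign at the 2 ages, -0.31 in young and 0.11 in adult mice, a young minus adult difference of -0.42. Each age has 1 injured and 1 sham library, so the difference was not tested. Both ratios are within 2-fold, and the adult ratio was -0.08 after median-of-ratios scaling and -0.26 after quantile normalization.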

How the results depend on the processing

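With 1 library per group, leaving out a replicate was not run. No paired analysis was possible because each group holds 1 library, so that no spread is left once samples are paired. Other pseudocounts, 3 rescalings, 2 other fold thresholds and a filter on low values were tried. Of the 200 recalculated log2 ratios of members, 193 kept their sign and 179 both their sign and their side of 2-fold. The 200 include other pseudocounts, which cannot change the sign of a ratio. All 7 changes of sign came from the rescalings. Of 50 differences between the ages 46 kept their sign and 43 both, and 46 of 64 counts of members stayed within 1.5 times. The counts include the filter on low values, which cannot change them. A 2-fold ratio of FPKM + 1 already needs at least 1 FPKM in 1 library. FPKM without counts give no error for members of low level. The cause of the changes listed was not tested beyond what each setting does by its construction.

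With 0.1 FPKM added in place of 1, Fgf7 passed 2-fold, with ratios of 1.26 after injury in young mice and 1.66 between the sham libraries, and a young minus adult difference of 1.16. Fgf18 was then at -1.23 for young against adult injured cartilage, with a difference of -1.10. The members past 2-fold numbered 1 higher after injury in young mice, 2 higher in adult than in young sham and 2 lower in young injured than in adult injured cartilage. With 5 FPKM added, Fgf18 was at -0.95 in young and -0.72 in adult mice after injury and Fgf1 at -0.62 for young against adult injured cartilage, leaving 1 member lower in young mice, 0 in adult mice and 0 lower in young injured than in adult injured cartilage. With FPKM rescaled to the same sum, the ratios of young to adult injured cartilage were -1.08 for Fgfr1, -1.08 for Fgfr2 and -1.12 for Fgf18, so that 4 members were lower, and the difference of Fgf18 was -1.02.

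With median-of-ratios scaling, Fgfr1 was at 1.18 for adult against young sham and -1.01 for young against adult injured cartilage, and Fgf1 at -1.03, Fgf7 at -0.11, Spry2 at -0.17 and Spry4 at -0.077 after injury in adult mice. The differences between the ages were 0.18 for Fgfr1 and 0.25 for Spry2. The counts were 2 lower after injury in adult mice, 2 higher in adult than in young sham and 2 lower in young injured than in adult injured cartilage. With quantile normalization, Fgf1 was at -1.01, Fgf7 at -0.26, Spry2 at -0.24 and Spry4 at -0.26 after injury in adult mice, Fgfr1 at -1.02 for young against adult injured cartilage, and the difference of Spry2 at 0.23, with 2 members lower in adult mice after injury and 2 lower in young injured than in adult injured cartilage. At 1.5-fold, 2 members were lower after injury in adult mice, 3 higher in adult than in young sham and 4 lower in young injured than in adult injured cartilage. At 3-fold these were 1 lower after injury in young mice, 0 in adult mice and 0 lower in young injured than in adult injured cartilage.

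The medians of the lists kept their sign in 169 of 192 recalculations, with a median of 0 counted as a sign of its own. Heparan sulfate enzymes after injury in young mice were at -0.0767 at the same sum of FPKM and -0.0211 under quantile normalization. After injury in adult mice, median-of-ratios scaling and quantile normalization gave -0.13 and -0.18 for heparan sulfate proteoglycans, -0.093 and -0.036 for adaptors, -0.0795 and -0.094 for ERK response genes and -0.12 and -0.10 for growth plate genes. For adult against young sham cartilage they gave 0.15 and 0.044 for heparan sulfate enzymes and 0.076 and 0.14 for feedback inhibitors, and the former gave 0.062 for adaptors. Feedback inhibitors were at -0.12 for young against adult injured cartilage at the same sum of FPKM. Receptors other than the members had sham medians between the ages of -1.87 with 0.1 FPKM added and -1.12 at the same sum. The filter gave 0.20 after injury in adult mice and 0.12 between the sham libraries for the other ligands, and -0.68 for them between the injured libraries.

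Over all genes, 21 of 64 counts past 2-fold stayed within 1.5 times, where the filter on low values again could not change a count. In the order of higher and lower after injury in young mice, after injury in adult mice, in adult against young sham and in young against adult injured cartilage, the counts were 1817, 768, 2882, 656, 1040, 3840, 1503 and 843 with 0.1 FPKM added, and 343, 79, 434, 128, 225, 670, 210 and 143 with 5 added. At 1.5-fold they were 1727, 874, 3262, 720, 1189, 4560, 1779 and 1001, and at 3-fold 368, 49, 442, 84, 183, 505, 188 and 96. At the same sum of FPKM, 430 genes were lower after injury in young mice, 2009 higher in adult mice and 625 lower in young injured than in adult injured cartilage. Median-of-ratios scaling gave 802 higher and 527 lower after injury in adult mice and 1065 and 932 between the sham libraries, and quantile normalization gave 725 and 489, and 916 and 959.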

Other observations

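Of the 12 enzymes that build and edit heparan sulfate, 3 were at least 2-fold lower and 0 higher in adult than in young sham cartilage, where 10.6% of all genes were lower. The median of the list, -0.25, was 0.15 after median-of-ratios scaling and 0.044 after quantile normalization. Hs6st2 was at 9.72 FPKM in young sham and 0.598 in adult sham cartilage, a log2 ratio of -2.75, and at 3.44 and 0.850 FPKM in the injured libraries. Glce, the epimerase of heparan sulfate synthesis, had 18.3 FPKM in young sham and 5.65 in adult sham cartilage, a ratio of -1.54, and Sulf2 had a ratio of -1.06. The glypican Gpc3 was at 12.5 and 0.894 FPKM, a ratio of -2.84.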
